A study of Mus musculus with 28 samples.

Results

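Microglia and macrophages sorted from the brains of the same kind of mouse were compared: 4 microglia and 3 macrophage libraries of female CReCOM mice aged 5 to 6 months, 7 of the 28 libraries of the series. They were chosen by genotype, age and cell type as the sample titles and library names give them. The age field of the young CReCOM microglia instead reads 11 to 12 months, that of the older WT microglia reads 5 to 6 months, and the titles and names were followed. CReCOM mice carry CD11cCre Casp8flox/flox: both Casp8 alleles are flanked by loxP, and Cre under the CD11c promoter deletes caspase-8 in cells that use that promoter. The WT mice used for comparison carry Casp8flox/flox without Cre, on the same C57BL/6 background, with 4 microglia and 3 macrophage libraries at 5 to 6 months. CReCOM mice of 11 to 12 months, again 4 and 3 libraries, served for a comparison of ages. All mice had completed behavioral testing, brains were perfused and freed of meninges, and cells were sorted as CD11b+CD64+ with low CD45 for microglia and high CD45 for macrophages. Per the study's methods, caspase-8 was found deleted, in DNA and by RNA-seq, in microglia of this line but not in macrophages that infiltrate the brain.

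Microglia are the resident macrophages of the brain parenchyma. They arise from yolk-sac progenitors, renew themselves locally, and hold their identity through TGF-β signaling and transcription factors such as Sall1. Macrophages with high CD45 in a perfused brain are mostly of blood monocyte origin or live at the borders of the brain, and they carry the antigen presentation, adhesion and granule genes of that lineage. In the CReCOM model, loss of caspase-8 in CD11c-expressing cells is linked to overactive MyD88 signaling and lupus-like disease, so the Toll-like receptor, interferon and cell death genes are of particular interest in both cell types.

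Expression is given as CPM, read counts scaled to the total of the library, in each library, always with microglia replicates 2, 3, 4 and 5 first and macrophage replicates 3, 4 and 5 after them. Fold changes are log2 values of microglia over macrophages from edgeR with their standard errors (SE), so that positive values are higher in microglia. A gene counted as called where the adjusted p was below 0.1 and the fold above 1.5, after Benjamini-Hochberg adjustment over all 9058 genes tested. Called values that changed by over 1.5 times, on the linear scale, when 1 library was left out are given without that library too. Library totals were 4561287 to 5699889 counts in microglia and 6309385 to 8344189 in macrophages, and 3 counts, taken as the floor of detection in 1 library, equal 0.526 to 0.658 CPM in microglia and 0.36 to 0.476 CPM in macrophages. Macrophage libraries were made from less RNA than microglia libraries, so RNA input, sort gate and cell type cannot be told apart. Each library is named for 1 mouse, and by those names mice 3, 4 and 5 gave both cell types. The main fit did not pair these libraries. Its p-values rest on the spread between libraries of the same group, WT groups included, as if all were independent. Fits with the mouse as a block are given beside it. Fewer cells of a kind and less RNA per cell cannot be told apart in bulk RNA.

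Casp8 on chromosome 1 (58795374 to 58847503, GRCm38), the gene that Cre removes, was at 31.1, 41.7, 27.5 and 45.8 CPM in microglia and 47.9, 73.7 and 42.3 CPM in macrophages. The ranges overlap, and Casp8 was not called (log2 fold change -0.57 ± 0.47, adjusted p = 0.515). In WT libraries of the same age it averaged 81.6 ± 30.4 CPM in microglia and 66.2 ± 4.18 CPM in macrophages. The reads come from the 3′ end of transcripts, and whether they cover the deleted exons was not tested. Itgax, which encodes CD11c and whose promoter drives Cre, was at 17.2, 11, 33.9 and 0 CPM in microglia and 96.5, 98.9 and 147 CPM in macrophages. All macrophage values lay above all microglia values (log2 fold change -2.87 ± 0.98, adjusted p = 0.0545). Itgax lost its call without microglia replicate 2 or 3, or macrophage replicate 5 (adjusted p up to 0.134). For Itgax the log2 fold change was -3.57 without microglia replicate 4. Itgax (adjusted p = 0.197) lost the call with the mouse as a block.

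The genes of the sort markers followed the gates in part. Ptprc, which encodes CD45, was at 561, 499, 505 and 622 CPM in microglia and 2020.5, 1841 and 1518 CPM in macrophages, with no overlap between the cell types (log2 fold change -1.70 ± 0.21, adjusted p = 5.71e-06). Itgam, the CD11b chain shared by both gates, was at 728, 895, 861 and 978 CPM in microglia and 757, 481 and 711 CPM in macrophages and was not called (log2 fold change 0.42 ± 0.20, adjusted p = 0.175). Fcgr1, which encodes the high-affinity Fc receptor CD64, was at 185, 101, 133 and 204 CPM in microglia and 10.9, 81.1 and 69.1 CPM in macrophages and was called higher in microglia (log2 fold change 1.54 ± 0.53, adjusted p = 0.052). Siglech, a lectin receptor of microglia that few other brain macrophages carry, was at 681, 654, 497 and 525 CPM in microglia and 0, 3.24 and 0.634 CPM in macrophages (log2 fold change 8.74 ± 1.5, adjusted p = 0.00211). Each pair of libraries from different cell types correlated at 0.433 to 0.484 over log2(CPM + 1) of the genes tested (12 pairs, as a description), below the 0.727 to 0.779 within microglia and the 0.793 to 0.84 within macrophages. Fcgr1 lost its call without microglia replicate 2 or 5, or macrophage replicate 3 (adjusted p up to 0.154). For Siglech the log2 fold change was 10.78 without macrophage replicate 4.

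Of the 9058 genes tested, 952 were called higher in microglia (10.5%) and 1002 higher in macrophages (11.1%), 21.6% in both directions together. The counts given below for each gene list are to be read beside these shares. Among called genes, 856 of the microglia set and 955 of the macrophage set did not overlap between the 4 and 3 libraries. Over all genes, called or not, 16.5% lay wholly higher in microglia and 17.8% wholly higher in macrophages. The median called gene was 8.69-fold higher in microglia or 5.23-fold higher in macrophages. Of the called genes, 381 differed by over 16-fold in favor of microglia and 307 in favor of macrophages, and 157 in each direction were at 0 counts in every library of the other cell type.

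**Figure D1:**
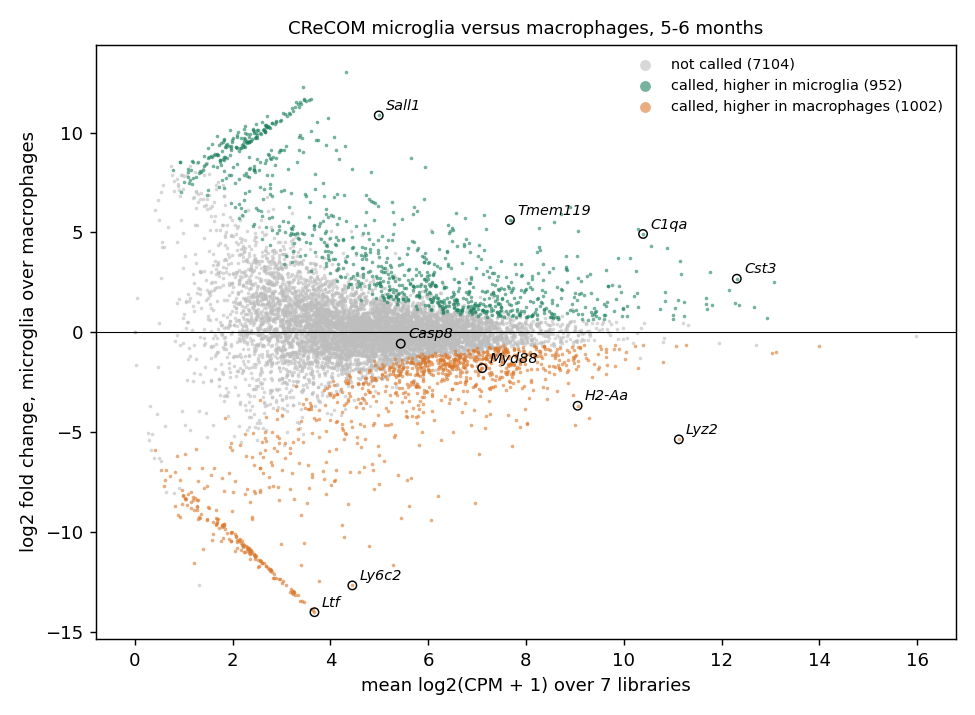
Log2 fold change of CReCOM microglia over macrophages at 5 to 6 months (vertical axis) against the mean of log2(CPM + 1) over the 7 libraries (horizontal axis) for the 9058 genes tested, with 952 genes called higher in microglia in green, 1002 called higher in macrophages in orange and the rest in grey. Named genes lie at both ends, with Sall1 and Tmem119 high and Lyz2 and Ly6c2 low, and the slanting edges are genes at or near 0 in the other cell type, whose fitted values are not bounds.

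The most abundant RNAs differed as well. Cst3, which encodes the protease inhibitor cystatin C, was among the 5 most abundant RNAs of microglia, at 8008, 14300.3, 11885 and 11513 CPM in microglia and 2009.8, 1509 and 1852 CPM in macrophages (log2 fold change 2.68 ± 0.19, adjusted p = 3.02e-09). In macrophages Lyz2, the lysozyme of the myeloid lineage, was the most abundant messenger at 349.7, 441, 426 and 628 CPM in microglia and 20216, 22517 and 14732 CPM in macrophages, which is 41.5-fold the microglia mean (log2 fold change -5.37 ± 0.20, adjusted p = 5.2e-13). Actin (Actb) and thymosin β4 (Tmsb4x), which binds actin monomers, were also among the 5 most abundant RNAs of macrophages, at means of 13128 ± 1645 and 13183 ± 4366 CPM (SD, n = 3).

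Homeostatic genes of microglia were higher in microglia almost throughout. Of 38 markers that passed the filter (of 40 listed), 37 were called higher in microglia and 0 in macrophages, with a median log2 fold change of 4.90 against 0.08 over all genes. Tmem119, a surface protein used to tell microglia from other macrophages, was at 1249.8, 1139.96, 835 and 1045 CPM in microglia and 21.7, 21.2 and 22.3 CPM in macrophages (log2 fold change 5.63 ± 0.31, adjusted p = 1.5e-10). The macrophage libraries were nearly equal to each other and far below every microglia library. P2ry12, the ADP receptor that steers microglial processes, was at 1254, 2176, 1242 and 1890.4 CPM in microglia and 10.2, 43.1 and 78.9 CPM in macrophages (log2 fold change 5.23 ± 0.61, adjusted p = 6.37e-05). Its neighbor P2ry13 was at 2525, 2134, 2037 and 2407 CPM in microglia and 70.9, 68.6 and 8.24 CPM in macrophages (log2 fold change 5.54 ± 0.70, adjusted p = 1.7e-04). No microglia library overlapped a macrophage library in these genes, and the macrophage values were spread more widely, in proportion, for P2ry12 and P2ry13 than the microglia values. For P2ry12 the log2 fold change was 5.94 without macrophage replicate 5.

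The other markers behaved alike. Cx3cr1, the fractalkine receptor, was at 7373, 6426, 5970.4 and 7089 CPM in microglia and 691, 304 and 731 CPM in macrophages (log2 fold change 3.56 ± 0.24, adjusted p = 2.4e-09), so that macrophages held a clear level of this receptor, which circulating monocytes also carry. Gpr34, a lysophosphatidylserine receptor, was at 538, 739, 422 and 599 CPM in microglia and 14.3, 9.83 and 3.01 CPM in macrophages (log2 fold change 6.00 ± 0.49, adjusted p = 5.13e-08), and the secreted protein gene Olfml3 at 783, 780.4, 535 and 676 CPM in microglia and 22.2, 9.11 and 26.3 CPM in macrophages (log2 fold change 5.19 ± 0.44, adjusted p = 6.68e-08). Trem2, the lipid and ApoE receptor of phagocytes, was at 1095, 1247, 895 and 1123 CPM in microglia and 70.3, 88.8 and 32.6 CPM in macrophages (log2 fold change 4.10 ± 0.74, adjusted p = 0.0023). Csf1r, the receptor for the survival factors CSF-1 and IL-34 on which all macrophages depend, had the smallest difference of the homeostatic markers named here, at 3259, 2905, 3008 and 3002 CPM in microglia and 1659.8, 1169 and 1125 CPM in macrophages (log2 fold change 1.22 ± 0.17, adjusted p = 3.67e-05). The exception to the calls was Rtn4rl1, at 85.7, 242, 156 and 112 CPM in microglia and 15.5, 0 and 0 CPM in macrophages, with 1 of 3 macrophage libraries above 0 (log2 fold change 4.87 ± 2.08, adjusted p = 0.151). Summed over the list, homeostatic markers came to 48031 to 57571 CPM in microglia and 5467 to 6361 CPM in macrophages, a macrophage mean of 11.6% of the microglia mean. Rtn4rl1 was called without macrophage replicate 3 (12.61, adjusted p = 0.0289). Rtn4rl1 (adjusted p = 0.0835) gained a call with the mouse as a block.

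**Figure D2:**
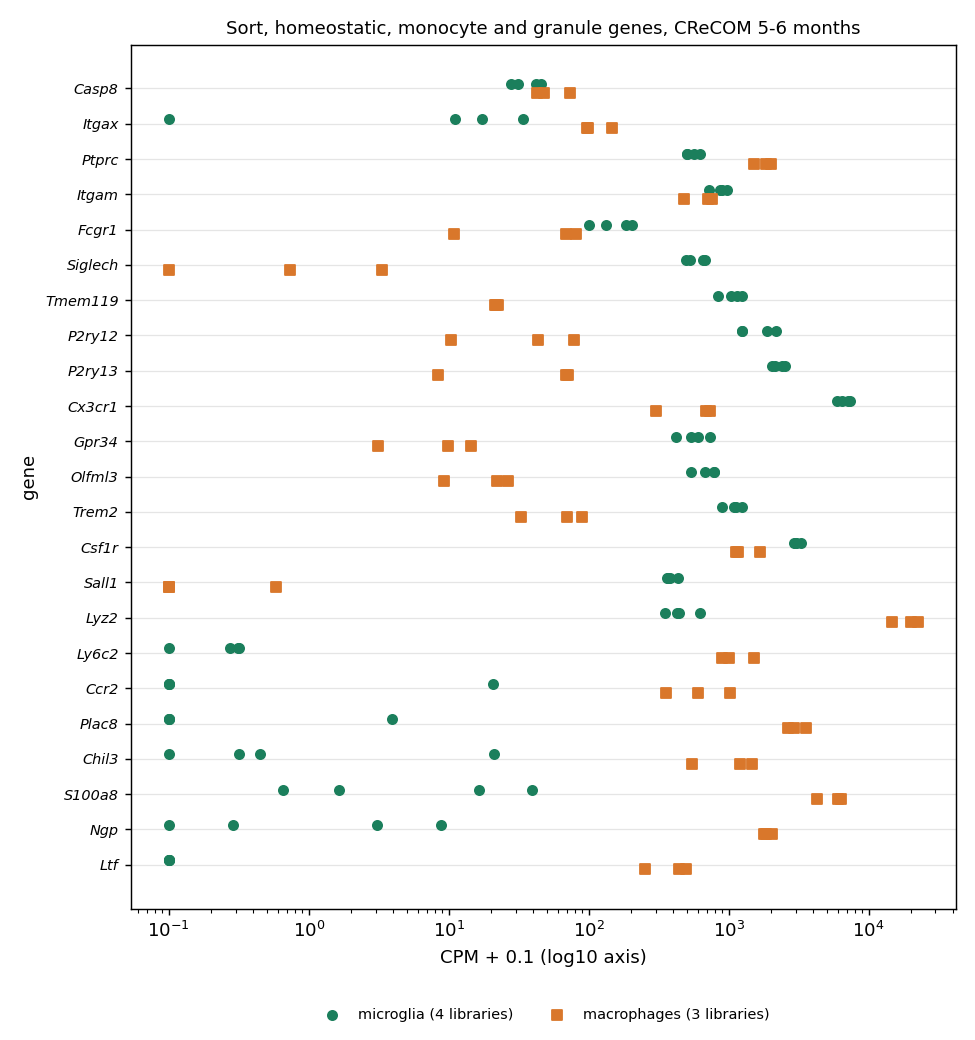
CPM on a log10 axis, drawn as CPM + 0.1, of genes of the sort gates, homeostatic microglia, monocytes and granules in each of the 4 microglia libraries (green circles) and 3 macrophage libraries (orange squares). The homeostatic genes lie to the right for microglia in every library and the monocyte and granule genes for macrophages, while Casp8 and Itgam overlap.

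Transcription factors separated the cell types further. Of 21 genes of the microglial regulators and the TGF-β pathway, 14 were called higher in microglia and 2 in macrophages (median 2.10). Sall1, on chromosome 8 (89027235 to 89044162), was at 360.1, 432, 378 and 369.8 CPM in microglia and 0, 0.479 and 0 CPM in macrophages (log2 fold change 10.87 ± 0.69, adjusted p = 1.26e-09), at 0 in 2 macrophage libraries and just above the floor in the other. Its family member Sall3 was at 307, 208, 153 and 131 CPM in microglia and 0 CPM in all 3 macrophage libraries, at least 419-fold higher in microglia. Maf and Mef2c, factors of tissue macrophage and microglial identity, averaged 618 ± 54.7 and 447 ± 113 CPM (SD, n = 4) in microglia against 96.1 ± 16.5 and 105 ± 6.69 CPM (SD, n = 3) in macrophages, with adjusted p of 2.93e-08 and 5.19e-06. Among the TGF-β receptors, Tgfbr1 was at 429, 662, 549 and 635 CPM in microglia and 56.3, 84.7 and 97.3 CPM in macrophages (log2 fold change 2.85 ± 0.36, adjusted p = 9.55e-06). Tgfbr2 was at 177, 531, 443 and 491 CPM in microglia and 52.8, 48.9 and 55.2 CPM in macrophages (log2 fold change 2.98 ± 0.38, adjusted p = 8.1e-06), its lowest value in microglia replicate 2. Smad7, an inhibitory target of the pathway, was called higher in microglia (log2 fold change 4.10 ± 1.20, adjusted p = 0.0323), whereas the ligand Tgfb1 and the effector Smad3 were not called, with log2 fold changes of -0.41 and 0.82. For Sall1 the log2 fold change was 13.94 without macrophage replicate 4, and for Smad7 it was 4.85 without macrophage replicate 4. Sall3 (adjusted p = 0.194) and Smad7 (adjusted p = 0.139) lost the call with the mouse as a block.

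The 2 called higher in macrophages were Nrros, which tethers latent TGF-β (log2 fold change -0.95 ± 0.28, adjusted p = 0.0205), and Spi1, which encodes the pan-macrophage factor PU.1. Spi1 was at 280.4, 132, 186 and 178 CPM in microglia and 644, 537 and 479.8 CPM in macrophages (log2 fold change -1.5 ± 0.27, adjusted p = 5.16e-04). Runx3, a Runt factor of lymphocytes and some myeloid cells, was at 0 CPM in all 4 microglia libraries and 60.7, 153 and 163 CPM in macrophages, at least 191-fold higher in macrophages. Of 26 factors of monocytes and activation, 4 were called higher in microglia and 6 in macrophages, beside 10.5% and 11.1% of all genes. The C/EBP pair split: Cebpa was at 904, 927, 989 and 671 CPM in microglia and 82.5, 127 and 119 CPM in macrophages (log2 fold change 3.00 ± 0.23, adjusted p = 1.41e-08), and Cebpb, the family member of emergency and inflammatory myelopoiesis, at 26.8, 166, 174 and 60.1 CPM in microglia and 863, 392 and 879 CPM in macrophages (log2 fold change -2.73 ± 0.51, adjusted p = 0.00161). Cebpa was thus the microglia-high member and Cebpb the macrophage-high one, with no library overlapping in either. Nr4a1 and Klf2, which mark patrolling monocytes, were not called, at log2 fold changes of -1.30 ± 0.66 and 0.48 ± 0.22 (SE). Microglia replicate 2 had only 167 CPM of Nr4a1 where the other microglia had 1060 to 1824 CPM. Nrros lost its call without macrophage replicate 4 (adjusted p up to 0.108). Klf2 was called without microglia replicate 2 (0.62, adjusted p = 0.0652). Nrros (adjusted p = 0.135) lost the call with the mouse as a block. Klf2 (adjusted p = 0.0708) gained a call with the mouse as a block.

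Monocyte markers went the other way. Of 30 that passed (of 31), 28 were called higher in macrophages and 0 in microglia, with a median of -7.51, or -7.26 with genes at 0 in microglia set to their bound. Ly6c2, the surface antigen of classical monocytes, was at 0.213, 0.219, 0.175 and 0 CPM in microglia and 998, 1516 and 899 CPM in macrophages, a ratio of summed counts of 7951 (95% interval 2720.2 to 38556). Ccr2, the receptor by which monocytes leave the marrow, was at 0, 0, 20.5 and 0 CPM in microglia and 357, 1021 and 601 CPM in macrophages (log2 fold change -6.98 ± 2.00, adjusted p = 0.0366). Microglia replicate 4 was the only microglia library with a Ccr2 level above the floor. Plac8, abundant in blood monocytes, was at 3.83, 0, 0 and 0 CPM in microglia and 2649, 3549.8 and 2928 CPM in macrophages (log2 fold change -11.65 ± 1.29, adjusted p = 5.72e-04), and the chitinase-like Chil3 at 21.1, 0.219, 0.351 and 0 CPM in microglia and 1197, 1465 and 542 CPM in macrophages (log2 fold change -7.61 ± 1.45, adjusted p = 0.00422). Treml4, a receptor of patrolling monocytes, was at 0 CPM in all 4 microglia libraries and 365, 109 and 145 CPM in macrophages, at least 314-fold higher in macrophages. Genes of classical and of patrolling monocytes were thus both detected in the macrophage libraries. For Ccr2 the log2 fold change was -14.76 without microglia replicate 4, for Plac8 it was -16.99 without microglia replicate 2, and for Chil3 it was -12.28 without microglia replicate 2.

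Border macrophage markers were less clear. Of 23, 12 passed the filter, and 1 (Stab1) was called higher in microglia and 6 in macrophages (median -2.82). Mrc1, the mannose receptor of perivascular macrophages, averaged 15.2 ± 14.7 CPM in microglia and 43.2 ± 53.7 CPM in macrophages and was not called (log2 fold change -1.49 ± 1.16, adjusted p = 0.484). Lyve1, Cbr2 and Folr2, other border markers, did not pass the filter. F13a1 and Tgfbi, which monocytes express as well, were among the called members, F13a1 at 2.13, 0, 7.89 and 13 CPM in microglia and 883, 866 and 748 CPM in macrophages (log2 fold change -7.15 ± 1.42, adjusted p = 0.00536) and Tgfbi at 14, 57.7, 47.7 and 28.5 CPM in microglia and 739, 1425 and 960.2 CPM in macrophages (log2 fold change -4.81 ± 0.77, adjusted p = 9.19e-04). Of the dendritic cell markers, 9 of 20 passed, with 1 called higher in microglia and 3 in macrophages. The microglial member was Irf8 (log2 fold change 0.69 ± 0.25, adjusted p = 0.0649), which is also a factor of microglia and monocytes. Irf8 lost its call without microglia replicate 3 or 5, or macrophage replicate 3 (adjusted p up to 0.299). For F13a1 the log2 fold change was -7.91 without microglia replicate 5. Irf8 (adjusted p = 0.104) lost the call with the mouse as a block.

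Markers of neutrophils and lymphocytes were higher in the macrophage libraries. Of 20 neutrophil markers that passed (of 24), 18 were called higher in macrophages, and the summed list came to 12426 to 17199 CPM in macrophages and 59.2 to 187.7 CPM in microglia. S100a8 and S100a9, the calprotectin subunits of neutrophils and inflammatory monocytes, averaged 5562 ± 1140.2 and 4717 ± 844 CPM (SD, n = 3) in macrophages and 14.4 ± 18 and 6.77 ± 12.9 CPM (SD, n = 4) in microglia. The granule proteins Ngp and Camp were at 8.72, 0, 2.98 and 0.186 CPM in microglia and 2027, 1849 and 1798 CPM in macrophages and at 2.77, 0, 0.175 and 0.186 CPM in microglia and 1654, 1115 and 1245 CPM in macrophages. Ltf, the lactoferrin of secondary granules, was at 0 CPM in all 4 microglia libraries and 442, 493 and 251 CPM in macrophages, at least 601-fold higher in macrophages. Ly6g, the defining surface marker of neutrophils, was low at 7.23, 0, 0 and 0 CPM in microglia and 4.97, 20.4 and 2.85 CPM in macrophages and was not called, and Csf3r, the G-CSF receptor, was not called either (log2 fold change 0.79 ± 0.49, adjusted p = 0.342). Of the T and NK cell markers, 18 of 29 passed and all 18 were called higher in macrophages, 17 of them at 0 in every microglia library. Neutrophil and lymphocyte markers near 0 in microglia could pass the filter only through a macrophage group. The direction of their calls was thus largely fixed beforehand. Over the whole T and NK list of 29, passed or not, 24 were at 0 in all 4 microglia libraries and 2 in all macrophage libraries. Gzma, a granzyme of cytotoxic lymphocytes, was at 0 CPM in all 4 microglia libraries and 146, 138 and 253 CPM in macrophages, at least 272-fold higher in macrophages, and Nkg7 at 0 CPM in all 4 microglia libraries and 37.1, 67.8 and 51 CPM in macrophages. That list summed to 522 to 970 CPM in macrophages and 0.2 to 24.9 CPM in microglia. The part of these cells in the genes called higher in macrophages was not tested.

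Endothelial and astrocyte markers were called mostly toward the microglia libraries. Of 17 endothelial and pericyte markers that passed (of 22), 10 were called higher in microglia and 1 in macrophages (median 4.42). Of 9 astrocyte markers that passed (of 18), 5 were called higher in microglia. Of 7 neuron markers (of 16) 2 were called higher in microglia, and of 7 oligodendrocyte markers (of 16) 1 was called in each direction. Members near 0 in macrophages could pass the filter only through a microglia group. The direction of calls of such members was thus largely fixed beforehand. Cldn5, the claudin of the blood-brain barrier, was at 143, 90.1, 265 and 123 CPM in microglia and 4.34, 0 and 2.85 CPM in macrophages (log2 fold change 6.03 ± 1.24, adjusted p = 0.0024). Endothelial markers summed to 1462 to 2168 CPM in 3 microglia libraries, to 4026 CPM in microglia replicate 4 and to 218 to 288.9 CPM in macrophages. Meg3, a long noncoding RNA of neurons, was at 1802, 781, 536 and 344 CPM in microglia and 159, 159 and 236 CPM in macrophages (log2 fold change 2.25 ± 0.46, adjusted p = 0.00333), highest in microglia replicate 2. The astrocyte gene Slc1a3, a glutamate transporter, was at 92.1, 68, 93.2 and 129.7 CPM in microglia and 6.21, 10.8 and 3.96 CPM in macrophages (log2 fold change 3.78 ± 0.99, adjusted p = 0.0111). Mbp, the myelin basic protein gene, went the other way at 103, 45.4, 26.8 and 66.3 CPM in microglia and 423, 281 and 425 CPM in macrophages (log2 fold change -2.62 ± 0.42, adjusted p = 1.52e-04), while the myelin gene Cnp was not called. Leaving out microglia replicate 4 left 821 genes called higher in microglia and 885 in macrophages, and leaving out replicate 2 left 868 and 940. For Cldn5 the log2 fold change was 6.79 without macrophage replicate 3 and 5.43 without macrophage replicate 4, and for Meg3 it was 1.59 without microglia replicate 2.

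Macrophage replicate 5 stood apart by red cell RNA. The β-globin gene Hbb-bs was at 9.15, 0.438, 9.3 and 17.5 CPM in microglia and 8.38, 4.31 and 10689 CPM in macrophages, and Hbb-bt was at 9.15, 0, 3.68 and 0.558 CPM in microglia and 0.776, 2.52 and 3468 CPM in macrophages. Both were called higher in macrophages, and without that library the log2 fold changes were 0.52 and 1.02, with neither called. The erythroid and platelet list summed to 16160 CPM there and to 8.9 and 13.3 CPM in the other macrophages. Without macrophage replicate 5, 752 genes were called higher in microglia and 823 in macrophages. Hbb-bs lost its call without microglia replicate 2, 3, 4 or 5 (adjusted p up to 0.13). Hbb-bs (adjusted p = 0.579) and Hbb-bt (adjusted p = 0.608) lost the call with the mouse as a block.

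The core genes of antigen presentation by MHC class II were higher in macrophages. Class II molecules present peptides to CD4 T cells, and transcription of their genes depends on the coactivator CIITA. Of 17 genes of the pathway that passed, 7 were called higher in macrophages and 4 in microglia (median -0.74). H2-Aa was at 111, 180.2, 307 and 165 CPM in microglia and 1323, 2479 and 3559 CPM in macrophages (log2 fold change -3.68 ± 0.36, adjusted p = 1.98e-06), H2-Ab1 at 173, 94.5, 117 and 142 CPM in microglia and 786, 1512 and 1739 CPM in macrophages (log2 fold change -3.35 ± 0.27, adjusted p = 2.52e-08) and H2-Eb1 at 186, 139, 217 and 179 CPM in microglia and 1733, 3914 and 5161 CPM in macrophages (log2 fold change -4.31 ± 0.41, adjusted p = 4.28e-06). The invariant chain gene Cd74 was at 113, 30.7, 83.7 and 59.9 CPM in microglia and 1074, 1785 and 2264 CPM in macrophages (log2 fold change -4.56 ± 0.39, adjusted p = 2.16e-07), and Ciita itself at 0 CPM in all 4 microglia libraries and 7.6, 22.7 and 29.2 CPM in macrophages, at least 30.1-fold higher in macrophages. In each of these genes the lowest macrophage value was replicate 3 and the highest replicate 5. The peptide-loading gene H2-DMa was not called (log2 fold change -0.74 ± 0.43, adjusted p = 0.293), nor was H2-Oa, at 16.8, 13.4, 8.25 and 38.3 CPM in microglia and 0.155, 11 and 3.49 CPM in macrophages. The 4 members called higher in microglia were 3 proteases and a costimulator, namely Ctss (log2 fold change 1.37 ± 0.14, adjusted p = 7.51e-07), Ctsl (log2 fold change 2.90 ± 0.40, adjusted p = 2.47e-05), Lgmn (log2 fold change 3.80 ± 0.48, adjusted p = 6.84e-05) and Cd86, a ligand of CD28 (log2 fold change 1.47 ± 0.39, adjusted p = 0.0115).

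The promoters of 3 class II genes are shown because H2-Aa and H2-Eb1 were both called higher in macrophages and H2-Oa, with the same motif, was not called. Sequences are from RefSeq (GRCm38.p6), 5′ to 3′ on the strand of the gene, from 250 bases before to 50 after the start, and capitals mark CTGATTGG, the Y box that the factor NF-Y binds. H2-Aa lies at chr17:34287774-34288073 (minus strand), H2-Eb1 at chr17:34305617-34305916 (plus strand) and H2-Oa at chr17:34092129-34092428 (plus strand).
H2-Aa: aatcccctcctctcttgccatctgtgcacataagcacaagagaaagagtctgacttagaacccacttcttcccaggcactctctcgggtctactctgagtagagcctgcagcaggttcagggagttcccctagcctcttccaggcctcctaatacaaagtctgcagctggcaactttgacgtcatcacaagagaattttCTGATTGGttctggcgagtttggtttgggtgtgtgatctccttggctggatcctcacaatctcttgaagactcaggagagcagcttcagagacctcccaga
H2-Eb1: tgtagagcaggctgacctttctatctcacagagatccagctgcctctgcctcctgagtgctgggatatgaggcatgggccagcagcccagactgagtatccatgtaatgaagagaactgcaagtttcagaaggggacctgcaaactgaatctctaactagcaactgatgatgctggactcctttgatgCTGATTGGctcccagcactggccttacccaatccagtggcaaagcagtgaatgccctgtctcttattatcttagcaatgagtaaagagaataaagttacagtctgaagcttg
H2-Oa: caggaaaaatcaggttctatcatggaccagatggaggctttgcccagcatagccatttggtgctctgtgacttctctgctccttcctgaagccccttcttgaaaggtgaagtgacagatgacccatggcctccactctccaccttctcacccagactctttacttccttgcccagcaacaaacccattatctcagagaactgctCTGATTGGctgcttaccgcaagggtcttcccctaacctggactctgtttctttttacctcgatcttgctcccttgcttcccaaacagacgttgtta

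The motif begins 51 bases before the start in H2-Aa, 62 in H2-Eb1 and 46 in H2-Oa. Searched on both strands (CCAATCAG on the other), it is in 4.1% of the 32851 promoters in the table. Counted by gene, as in the shares that follow, 4.7% of 27025 genes with a promoter hold it. Promoters were given for 13 class II pathway genes, of which these 3 hold it, and for 20 class I genes, of which 8 do, among them H2-K1 and H2-D1. Promoters of H2-Ab1 and Ciita were not analysed here. Among genes with a promoter in the table, 6.29% of those called higher in microglia, 6.12% of those called higher in macrophages and 6.13% of those not called hold it.

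Class I genes differed by less. Of 22, 10 were called higher in macrophages and 2 in microglia (median -0.57). The light chain gene B2m was at 1427, 1939.7, 2453 and 2625 CPM in microglia and 3859, 2739 and 3150.1 CPM in macrophages (log2 fold change -0.62 ± 0.19, adjusted p = 0.0291). H2-K1 differed by less than the threshold of 1.5-fold (log2 fold change -0.52 ± 0.17, adjusted p = 0.041), and H2-D1 passed it (log2 fold change -0.68 ± 0.22, adjusted p = 0.0376) with overlapping libraries. These 2 genes are close copies, so reads could be shared or lost between them. The peptide transporter Tap1 was at 40.2, 26.5, 58.1 and 35.2 CPM in microglia and 145, 379 and 346 CPM in macrophages (log2 fold change -2.85 ± 0.51, adjusted p = 3.91e-04). The chaperones Pdia3 and Canx were the 2 members called higher in microglia, at log2 fold changes of 0.79 and 0.64. B2m lost its call without microglia replicate 2, or macrophage replicate 3 (adjusted p up to 0.156). H2-K1 was called without macrophage replicate 3 or 4 (-0.71, adjusted p = 0.00617). H2-D1 lost its call without microglia replicate 2, or macrophage replicate 3 or 5 (adjusted p up to 0.173). Pdia3 lost its call without macrophage replicate 5 (adjusted p up to 0.101). Canx lost its call without microglia replicate 2, 3, 4 or 5, or macrophage replicate 3 or 5 (adjusted p up to 0.342). B2m (adjusted p = 0.167), H2-D1 (adjusted p = 0.186) and Canx (adjusted p = 0.188) lost the call with the mouse as a block.

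Genes of the type I interferon response were called toward macrophages or not at all. Of 42 genes of the type I response that passed (of 50), 16 were called higher in macrophages and 0 in microglia, with a median of -1.52. Over all genes the shares were 11.1% and 10.5%. Irf7, which amplifies type I interferon, was at 30.0, 0, 3.16 and 1.49 CPM in microglia and 122, 267 and 196 CPM in macrophages (log2 fold change -4.47 ± 1.48, adjusted p = 0.0595). Ifitm3, an antiviral membrane protein, was at 92.1, 89.2, 165 and 189 CPM in microglia and 2769, 4006 and 3185 CPM in macrophages (log2 fold change -4.63 ± 1.00, adjusted p = 0.00941), and Oasl2 at 15.1, 6.14, 9.82 and 14.3 CPM in microglia and 116, 274 and 137 CPM in macrophages (log2 fold change -3.94 ± 0.92, adjusted p = 0.00506). Slfn2 and Sp100, which the study lists among its lupus microglia genes, were also called higher in macrophages (log2 fold change -3.21 ± 0.43, adjusted p = 2.04e-05 and log2 fold change -2.40 ± 0.45, adjusted p = 6.62e-04). The receptor chains Ifnar1 and Ifnar2 (-0.65 and 0.30) and Stat2 (-0.61) were not called. Of 20 genes of the interferon-γ response, 3 were called higher in microglia and 1 in macrophages, near the 21.6% of all genes called in either direction. Socs3, which restrains cytokine receptors, was the largest of these at 697, 2745, 2027 and 2698 CPM in microglia and 466, 402 and 387 CPM in macrophages (log2 fold change 2.29 ± 0.41, adjusted p = 0.00116), and Jak2 the 1 higher in macrophages (log2 fold change -1.88 ± 0.65, adjusted p = 0.0534). Irf7 lost its call without microglia replicate 4 or 5, or macrophage replicate 4 (adjusted p up to 0.139). Jak2 lost its call without microglia replicate 2, 3 or 5, or macrophage replicate 3, 4 or 5 (adjusted p up to 0.134). For Irf7 the log2 fold change was -6.94 without microglia replicate 2. Jak2 (adjusted p = 0.169) lost the call with the mouse as a block.

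Toll-like receptor signaling had called members on both sides. Of 34 genes, 6 were called higher in microglia and 5 in macrophages (median 0.64), beside 10.5% and 11.1% of all genes. Myd88, on chromosome 9 (119335934 to 119341411), the adaptor of nearly all Toll-like receptors and of the IL-1 receptor, was at 69.1, 69.1, 82.3 and 103 CPM in microglia and 234, 334 and 278 CPM in macrophages (log2 fold change -1.80 ± 0.32, adjusted p = 3.99e-04). Every macrophage library was above every microglia library. Its partner kinase Irak4 was at 19.1, 47.1, 15.3 and 19 CPM in microglia and 64.4, 88 and 75.8 CPM in macrophages (log2 fold change -1.58 ± 0.53, adjusted p = 0.0447), and Ikbkb, the kinase that releases NF-κB, at 50.4, 68.8, 44.4 and 52.3 CPM in microglia and 413, 229 and 231 CPM in macrophages (log2 fold change -2.42 ± 0.38, adjusted p = 1e-04). Irak3, an inhibitory kinase of the pathway, was at 18.1, 0.219, 0 and 1.68 CPM in microglia and 85.8, 48.4 and 78.5 CPM in macrophages (log2 fold change -3.79 ± 1.44, adjusted p = 0.0829). In microglia, the endosomal receptors Tlr3 and Tlr12 were called higher, Tlr3 at 72.3, 101, 68.9 and 134 CPM in microglia and 17.5, 17.5 and 9.19 CPM in macrophages (log2 fold change 2.68 ± 1.04, adjusted p = 0.09) and Tlr12 at 108, 58.5, 97 and 132 CPM in microglia and 0, 6.47 and 9.03 CPM in macrophages (log2 fold change 4.25 ± 1.28, adjusted p = 0.0334). Unc93b1, the chaperone that delivers such receptors to endosomes, was at 707, 931, 972 and 1239 CPM in microglia and 490.5, 554 and 357 CPM in macrophages (log2 fold change 1.05 ± 0.21, adjusted p = 0.00143). The NF-κB inhibitor and target Nfkbia was at 7398, 7304, 8226 and 8321 CPM in microglia and 2697, 2077 and 3618 CPM in macrophages (log2 fold change 1.49 ± 0.16, adjusted p = 1.71e-06). Irak4 lost its call without microglia replicate 4 or 5, or macrophage replicate 4 (adjusted p up to 0.131). Irak3 lost its call without microglia replicate 3, 4 or 5, or macrophage replicate 3, 4 or 5 (adjusted p up to 0.18). Tlr3 lost its call without microglia replicate 2, 3, 4 or 5, or macrophage replicate 3, 4 or 5 (adjusted p up to 0.241). For Irak3 the log2 fold change was -6.75 without microglia replicate 2, and for Tlr12 it was 4.90 without macrophage replicate 5. Irak4 (adjusted p = 0.163) lost the call with the mouse as a block.

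Other members of the pathway were not called, like most of the genes tested. Tlr7, the single-stranded RNA sensor tied to lupus, was at 147, 119, 118 and 41.3 CPM in microglia and 86.1, 56.2 and 57.7 CPM in macrophages (log2 fold change 0.69 ± 0.47, adjusted p = 0.402). Tlr2, which senses lipoproteins, was higher in every macrophage library than in every microglia library but missed the threshold (log2 fold change -0.74 ± 0.42, adjusted p = 0.285). Tlr4, the endotoxin receptor, was separated in the other direction and missed it too (log2 fold change 2.10 ± 1.35, adjusted p = 0.364). Tlr9, the DNA sensor, was detected in only 2 microglia libraries, at 0, 30.5, 40.9 and 0 CPM in microglia and 0, 2.52 and 3.96 CPM in macrophages. Traf6 and Irak1, which relay the signal of MyD88, had log2 fold changes of 1.02 ± 1.33 and 0.42 ± 0.49 (SE).

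**Figure D3:**
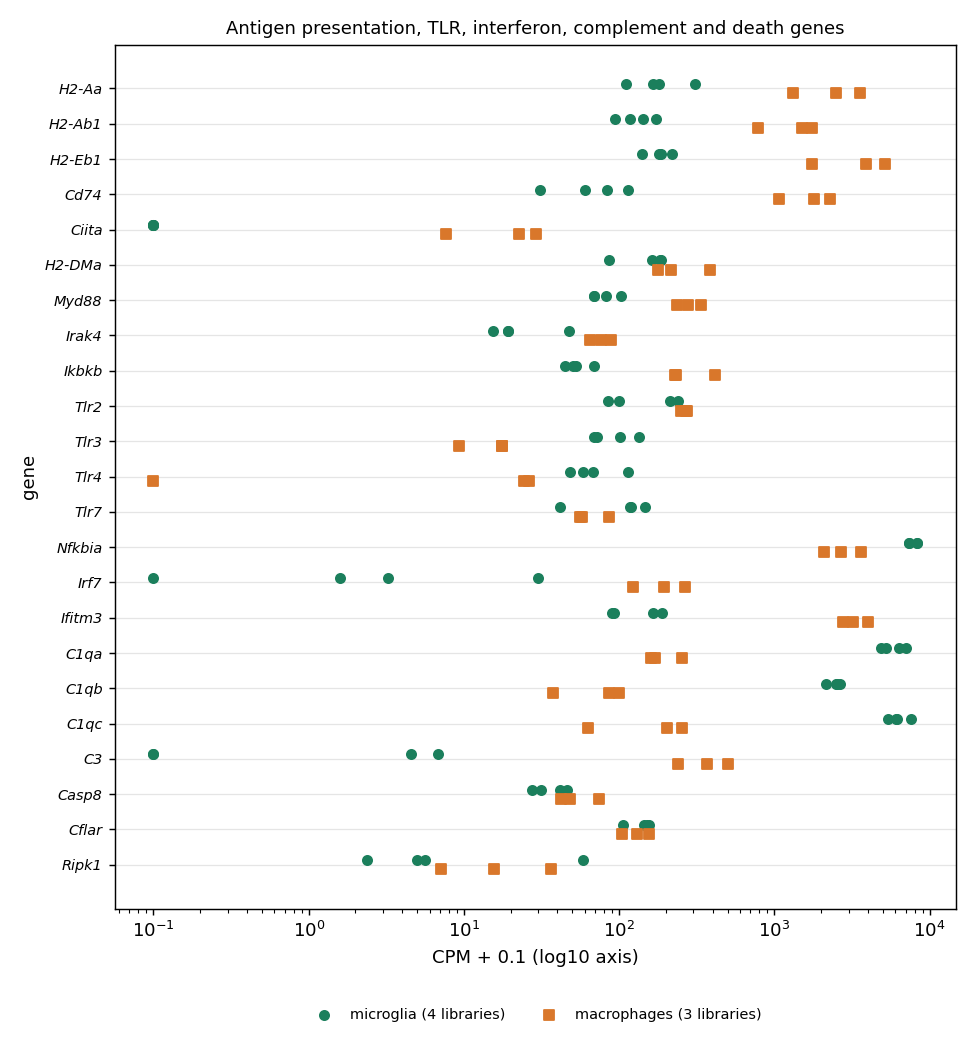
CPM on a log10 axis, drawn as CPM + 0.1, in the 4 microglia (green circles) and 3 macrophage (orange squares) libraries for genes of MHC class II, Toll-like receptor signaling, interferon, complement and caspase-8. H2-Aa, H2-Ab1, H2-Eb1, Cd74, Ciita and Myd88 lie higher in all macrophage libraries, the C1q genes in all microglia libraries, and Casp8, Ripk1 and Tlr7 overlap.

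Of 28 cell death genes around caspase-8, 1 was called higher in microglia and 5 in macrophages (median -0.34), near the 21.6% of all genes called in either direction. The caspase-8 regulator Cflar was at 154, 150.4, 144 and 106 CPM in microglia and 131, 157 and 104 CPM in macrophages, with a log2 fold change of 0.10 ± 0.34 (SE), and the necroptosis kinase Ripk1 was at 4.89, 5.48, 2.28 and 58.6 CPM in microglia and 6.98, 36.3 and 15.5 CPM in macrophages. Its levels spread so widely within each cell type that the error was 1.62 on the log2 scale. The inflammasome genes Casp1 (-1.05) and Nlrp3 (0.81) and the pore-forming Gsdmd (-0.50) were not called. Tnfrsf1a, the death-domain receptor of TNF, was called higher in macrophages at 262, 169, 285 and 205 CPM in microglia and 688, 855 and 711 CPM in macrophages (log2 fold change -1.70 ± 0.26, adjusted p = 6.9e-05). Zbp1, a nucleic acid sensor that can start necroptosis and is itself an interferon target, was at 0, 4.38, 11.4 and 12.8 CPM in microglia and 148, 182 and 194 CPM in macrophages (log2 fold change -4.60 ± 1.53, adjusted p = 0.0601). Ripk3, Mlkl and Fadd did not pass the filter. Nlrp3 was called without microglia replicate 2 (1.00, adjusted p = 0.0475). Zbp1 lost its call without microglia replicate 3 or 4 (adjusted p up to 0.136). Nlrp3 (adjusted p = 0.0201) gained a call with the mouse as a block.

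Complement genes were called on both sides. Of 16 genes, 6 were called higher in microglia and 4 in macrophages (median 0.88), beside 10.5% and 11.1% of all genes. The 3 chains of C1q, which start the classical pathway, were among the strongest microglia genes: C1qa at 7039, 5216, 6362 and 4880.2 CPM in microglia and 159.97, 171 and 253 CPM in macrophages (log2 fold change 4.93 ± 0.32, adjusted p = 8.02e-09), C1qb at 2657, 2158, 2518 and 2476 CPM in microglia and 37.5, 100.1 and 85.3 CPM in macrophages (log2 fold change 5.05 ± 0.31, adjusted p = 5.77e-10) and C1qc at 5369, 6102, 6126 and 7633 CPM in microglia and 62.5, 203 and 254 CPM in macrophages (log2 fold change 5.20 ± 0.39, adjusted p = 1.65e-07). The C3a receptor gene C3ar1 was at 209.8, 296, 218 and 269 CPM in microglia and 2.95, 15 and 62.3 CPM in macrophages (log2 fold change 3.23 ± 0.68, adjusted p = 0.00385). In macrophages C3, the central component, was at 4.47, 0, 6.67 and 0 CPM in microglia and 503, 367 and 238 CPM in macrophages (log2 fold change -7.02 ± 1.65, adjusted p = 0.0131). Cfp, which encodes properdin of the alternative pathway, was at 0, 0.219, 0 and 0 CPM in microglia and 132, 128 and 92.4 CPM in macrophages, a ratio of summed counts of 2411 (95% interval 432 to 95282). Itgb2, the β chain of complement receptor 3, was at 279, 518, 352 and 575 CPM in microglia and 1557, 949.5 and 1459 CPM in macrophages (log2 fold change -1.61 ± 0.27, adjusted p = 1.92e-04). For C3ar1 the log2 fold change was 4.78 without macrophage replicate 5, and for C3 it was -7.92 without microglia replicate 4.

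Purinergic and related receptor genes were of microglia, with 8 of 12 called higher there and 0 in macrophages (median 2.27). Beyond P2ry12 and P2ry13, the adenosine receptor Adora3 was at 189, 197, 219 and 156 CPM in microglia and 1.55, 5.75 and 5.71 CPM in macrophages (log2 fold change 5.45 ± 1.12, adjusted p = 0.00385), and P2ry6, the UDP receptor linked to phagocytosis, at 194, 67.7, 92.6 and 129.5 CPM in microglia and 37.4, 31 and 26.3 CPM in macrophages (log2 fold change 1.95 ± 0.46, adjusted p = 0.00502). The ATP-gated channel P2rx7 was called higher in microglia (log2 fold change 2.03 ± 0.67, adjusted p = 0.0525), and P2rx4 was not (log2 fold change -0.31 ± 0.66, adjusted p = 0.848). P2rx7 lost its call without macrophage replicate 3, 4 or 5 (adjusted p up to 0.159). P2rx7 (adjusted p = 0.163) lost the call with the mouse as a block.

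Cytokines and chemokines were shared out between the cell types. Of 20 cytokine genes, 8 were called higher in microglia and 5 in macrophages. The IL-1 family divided: Il1a was at 167, 317, 389 and 303 CPM in microglia and 9, 0.599 and 0.158 CPM in macrophages (log2 fold change 6.52 ± 1.49, adjusted p = 0.0121), Il1b at 73, 106, 221 and 246 CPM in microglia and 814, 1221 and 1362 CPM in macrophages (log2 fold change -2.81 ± 0.41, adjusted p = 1.67e-04) and the receptor antagonist Il1rn at 0, 0, 5.44 and 0 CPM in microglia and 175, 106 and 373 CPM in macrophages (log2 fold change -7.27 ± 1.98, adjusted p = 0.025). Il1a was the member higher in microglia, and Il1b and the antagonist were higher in macrophages. Tnf was at 205, 96.5, 209 and 122 CPM in microglia and 55.1, 35.1 and 66.9 CPM in macrophages (log2 fold change 1.60 ± 0.35, adjusted p = 0.00272), and Csf1, which encodes the ligand of CSF1R, at 132, 103, 152 and 174 CPM in microglia and 15.7, 8.39 and 22.2 CPM in macrophages (log2 fold change 3.19 ± 0.49, adjusted p = 8.02e-05). Gas6, a bridge between dying cells and TAM receptors, was at 426, 745, 838 and 609.9 CPM in microglia and 2.64, 3.24 and 0.317 CPM in macrophages (log2 fold change 8.28 ± 1.03, adjusted p = 1.38e-04). Of 16 chemokines, 4 were called higher in each cell type. The inflammatory chemokines Ccl3 and Ccl4 were microglial, at 672, 1238, 1275 and 1585 CPM in microglia and 157, 112 and 130.3 CPM in macrophages (log2 fold change 3.17 ± 0.28, adjusted p = 6.8e-08) and at 447, 822, 1098 and 1207 CPM in microglia and 305, 203 and 289 CPM in macrophages (log2 fold change 1.75 ± 0.30, adjusted p = 2.53e-04). Ccl6 and the neutrophil attractant Cxcl2 were of macrophages, at 188, 114, 119 and 175 CPM in microglia and 838, 1481 and 654 CPM in macrophages (log2 fold change -2.72 ± 0.28, adjusted p = 5.06e-07) and at 26.2, 57.2, 98.6 and 49.3 CPM in microglia and 462, 687 and 739.9 CPM in macrophages (log2 fold change -3.44 ± 0.36, adjusted p = 1.02e-06). Ccl2 and Cxcl10 were not called, with log2 fold changes of 0.89 ± 0.44 and -0.35 ± 0.97 (SE). Ccl2 was called without microglia replicate 2 (1.19, adjusted p = 0.037). For Il1a the log2 fold change was 9.44 without macrophage replicate 3, and for Il1rn it was -13.16 without microglia replicate 4 and -6.65 without macrophage replicate 5. Ccl2 (adjusted p = 0.0856) gained a call with the mouse as a block.

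Their receptors divided too. Of 20 chemotactic receptors, 5 were called higher in microglia and 8 in macrophages. S1pr1, the receptor for sphingosine 1-phosphate, was at 62.5, 144, 261 and 109 CPM in microglia and 0.31, 0.12 and 0 CPM in macrophages, a ratio of summed counts of 1046 (95% interval 358 to 5076). Cxcr4, the CXCL12 receptor of marrow-derived cells, was at 0 CPM in all 4 microglia libraries and 227, 130.03 and 209.8 CPM in macrophages, at least 287-fold higher in macrophages, and the formyl peptide receptor Fpr2 at 0 CPM in all 4 microglia libraries and 423, 116 and 271 CPM in macrophages, at least 410.5-fold higher in macrophages. The CXCR4 ligand Cxcl12 was higher in the microglia libraries, at 163, 101, 456 and 194 CPM in microglia and 1.55, 6.71 and 0 CPM in macrophages (log2 fold change 6.33 ± 1.32, adjusted p = 0.00441). It was highest in replicate 4, which also had the most endothelial RNA, and which cells it came from was not tested. Among integrins, 10 of 26 were called higher in microglia and 9 in macrophages. Itga4, the VLA-4 chain by which leukocytes cross vessels, was at 0, 1.75, 0 and 0.931 CPM in microglia and 591, 525 and 517 CPM in macrophages (log2 fold change -9.65 ± 0.77, adjusted p = 2.72e-06), and Vcam1, which encodes its counter-receptor, at 81, 89.2, 124 and 89.7 CPM in microglia and 10.4, 6.47 and 8.24 CPM in macrophages (log2 fold change 3.52 ± 0.97, adjusted p = 0.0153). Itgb5, a partner of the αv chain, was at 1039, 1235, 1159 and 1255 CPM in microglia and 114, 111 and 182 CPM in macrophages (log2 fold change 3.12 ± 0.30, adjusted p = 2.63e-07). For Cxcl12 the log2 fold change was 8.15 without macrophage replicate 4, and for Itga4 it was -10.65 without microglia replicate 3.

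Phagocytosis and lysosome genes differed member by member. Of 30 genes of uptake and lipid handling, 11 were called higher in microglia and 12 in macrophages (median -0.29). Mertk, a TAM receptor for apoptotic cells, was at 819.6, 805, 942 and 887 CPM in microglia and 7.29, 7.07 and 30.3 CPM in macrophages (log2 fold change 5.87 ± 0.94, adjusted p = 0.00104), and its fellow receptor Axl was not called (log2 fold change -0.14 ± 0.59, adjusted p = 0.929). The scavenger receptors Msr1 and Cd36 were of macrophages, at 0, 0, 1.93 and 0 CPM in microglia and 77.1, 128 and 160.2 CPM in macrophages (log2 fold change -7.86 ± 2.02, adjusted p = 0.0155) and at 0, 1.1, 5.96 and 15.1 CPM in microglia and 140.3, 114 and 252 CPM in macrophages (log2 fold change -4.92 ± 1.76, adjusted p = 0.0858). The cholesterol exporter Abca1 was at 141, 221, 322 and 259.8 CPM in microglia and 3.1, 31.6 and 3.33 CPM in macrophages (log2 fold change 4.21 ± 0.76, adjusted p = 0.00105). Of 30 lysosome genes, 10 were called higher in microglia and 4 in macrophages, beside 10.5% and 11.1% of all genes. Ctsd, a major aspartic protease, was at 1998, 1972, 2018 and 2019.6 CPM in microglia and 174, 288 and 239 CPM in macrophages (log2 fold change 3.11 ± 0.24, adjusted p = 1.39e-08) and Cd63 at 1134, 943, 1102 and 842 CPM in microglia and 84.6, 73.7 and 171 CPM in macrophages (log2 fold change 3.21 ± 0.35, adjusted p = 1.63e-06), while Ctsb, Lamp1 and Psap were not called. Cd36 lost its call without microglia replicate 2, 3 or 4, or macrophage replicate 3, 4 or 5 (adjusted p up to 0.174). For Mertk the log2 fold change was 6.91 without macrophage replicate 5, for Msr1 it was -12.32 without microglia replicate 4, for Cd36 it was -6.11 without microglia replicate 5, and for Abca1 it was 6.19 without macrophage replicate 4.

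Genes of disease-associated microglia were called on both sides, and more often toward macrophages. This set is known from microglia around amyloid and in other degeneration. Of 33, 8 were called higher in microglia and 14 in macrophages (median -0.34), beside 10.5% and 11.1% of all genes. Apoe, the lipid carrier that leads the set, was at 306, 212, 371 and 209 CPM in microglia and 624, 478 and 818 CPM in macrophages (log2 fold change -1.21 ± 0.27, adjusted p = 0.00346). Clec7a, the β-glucan receptor dectin-1, was at 6.38, 12.3, 28.6 and 11.2 CPM in microglia and 301, 391 and 344 CPM in macrophages (log2 fold change -4.56 ± 0.66, adjusted p = 8.21e-05), and Lgals3 at 23.2, 15.6, 5.61 and 47.8 CPM in microglia and 715, 895 and 617 CPM in macrophages (log2 fold change -5.00 ± 1.42, adjusted p = 0.035). Tyrobp, the signaling adaptor of TREM2, was at 771, 740.3, 616 and 874 CPM in microglia and 1452, 1216 and 903 CPM in macrophages (log2 fold change -0.65 ± 0.20, adjusted p = 0.0242). Trem2, Csf1, Ctsd, Ctsl, Cd63 and Timp2 were among those higher in microglia, Timp2 at 905, 961, 741 and 1142 CPM in microglia and 49, 143 and 72.3 CPM in macrophages (log2 fold change 3.42 ± 0.34, adjusted p = 3.4e-07). The study chose its lupus microglia signature from genes raised against controls in microglia of both CReCOM and B6.Sle1Sle3 mice. The CReCOM and WT microglia were those of 11 to 12 months from the same mouse groups as here. That comparison was within microglia, unlike the one between cell types given here. Of the 16 genes that the study's text names for this signature, 2 were called higher in microglia and 5 in macrophages. The shares of all genes are again 10.5% and 11.1%. Tyrobp lost its call without microglia replicate 4, or macrophage replicate 3 (adjusted p up to 0.153). For Lgals3 the log2 fold change was -5.63 without microglia replicate 5. Tyrobp (adjusted p = 0.113) lost the call with the mouse as a block.

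Motility and growth genes were of macrophages. Of 29 actin, annexin and S100 genes, 27 were called higher in macrophages and 0 in microglia (median -4.00). Flna, the actin cross-linker filamin A, was at 60.8, 72.3, 61 and 70.4 CPM in microglia and 2115, 1495 and 1269 CPM in macrophages (log2 fold change -4.61 ± 0.32, adjusted p = 2.7e-09), and Vim, which encodes vimentin, at 55.1, 74.1, 70.3 and 43.6 CPM in microglia and 1379.996, 1539 and 916 CPM in macrophages (log2 fold change -4.38 ± 0.62, adjusted p = 3.09e-04). S100a6 was at 5.32, 1.53, 13.2 and 6.14 CPM in microglia and 1621, 2829 and 1518 CPM in macrophages (log2 fold change -8.23 ± 1.06, adjusted p = 2.63e-04). Of 17 proliferation genes, 9 were called higher in macrophages and 0 in microglia (median -3.09). Top2a, a topoisomerase of dividing cells, was at 11.1, 6.14, 5.09 and 16.2 CPM in microglia and 172, 272 and 249.6 CPM in macrophages (log2 fold change -4.58 ± 0.63, adjusted p = 2.61e-05), and Mki67 was at 0.213, 0, 0 and 0 CPM in microglia and 29.6, 57.8 and 51.5 CPM in macrophages, a ratio of summed counts of 962 (95% interval 172 to 38029). The replication genes Pcna and Mcm3 were not called. Of 35 ribosomal protein genes, 18 were called higher in macrophages and 0 in microglia (median -1.12), for example Rps9 at 297, 231, 357 and 324 CPM in microglia and 951, 1168 and 1175 CPM in macrophages (log2 fold change -1.85 ± 0.21, adjusted p = 1.96e-06). Ribosomal proteins have many near-identical pseudogene copies, so their counts depend on how shared reads were treated.

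Early response genes were of microglia. Of 29 genes that tissue dissociation and heat are known to induce, 22 were called higher in microglia and 1 in macrophages (median 1.28). Egr1 was at 6303, 7532, 7047 and 6084 CPM in microglia and 320.4, 237 and 531 CPM in macrophages (log2 fold change 4.23 ± 0.23, adjusted p = 1.5e-10), Jun at 7319.6, 10433, 7663 and 8869 CPM in microglia and 1129, 894 and 1164 CPM in macrophages (log2 fold change 3.02 ± 0.17, adjusted p = 1.5e-10) and Fos at 3470.5, 6968, 4762 and 4279 CPM in microglia and 2475, 1564 and 2437 CPM in macrophages (log2 fold change 1.19 ± 0.25, adjusted p = 0.0024). Rhob, a small GTPase of the same response, was at 2758, 3175, 2711 and 3377 CPM in microglia and 414, 375 and 308 CPM in macrophages (log2 fold change 3.05 ± 0.20, adjusted p = 1.14e-09). The heat shock genes Hspa1a and Dnajb1 were also higher, Hspa1a at 921, 4201, 1558 and 1511 CPM in microglia and 729, 229 and 245 CPM in macrophages (log2 fold change 2.37 ± 0.57, adjusted p = 0.0138) and Dnajb1 at 709, 1004, 665 and 606 CPM in microglia and 122, 68.2 and 98.4 CPM in macrophages (log2 fold change 2.97 ± 0.49, adjusted p = 3.99e-04). Brain tissue was digested with enzymes before both cell types were sorted. Dusp2, a phosphatase of immune cells, was the member called higher in macrophages (log2 fold change -1.30 ± 0.29, adjusted p = 0.00342). Sugar transport and glycolysis also divided, with 4 of 17 called higher in microglia and 7 in macrophages. The fructose transporter Slc2a5 was at 370.4, 274, 230.3 and 282 CPM in microglia and 8.38, 2.76 and 3.17 CPM in macrophages (log2 fold change 5.94 ± 0.91, adjusted p = 3.96e-04), and the lactate genes Ldha and Slc16a3 were at 36.4, 12.5, 22.6 and 25.5 CPM in microglia and 126, 134 and 153 CPM in macrophages (log2 fold change -2.49 ± 0.46, adjusted p = 5.23e-04) and at 34, 41.4, 42.3 and 53.4 CPM in microglia and 149, 231 and 148 CPM in macrophages (log2 fold change -2.03 ± 0.36, adjusted p = 3.72e-04). For Hspa1a the log2 fold change was 1.73 without microglia replicate 3 and 3.12 without macrophage replicate 3, and for Slc2a5 it was 6.61 without macrophage replicate 3.

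**Figure D4:**
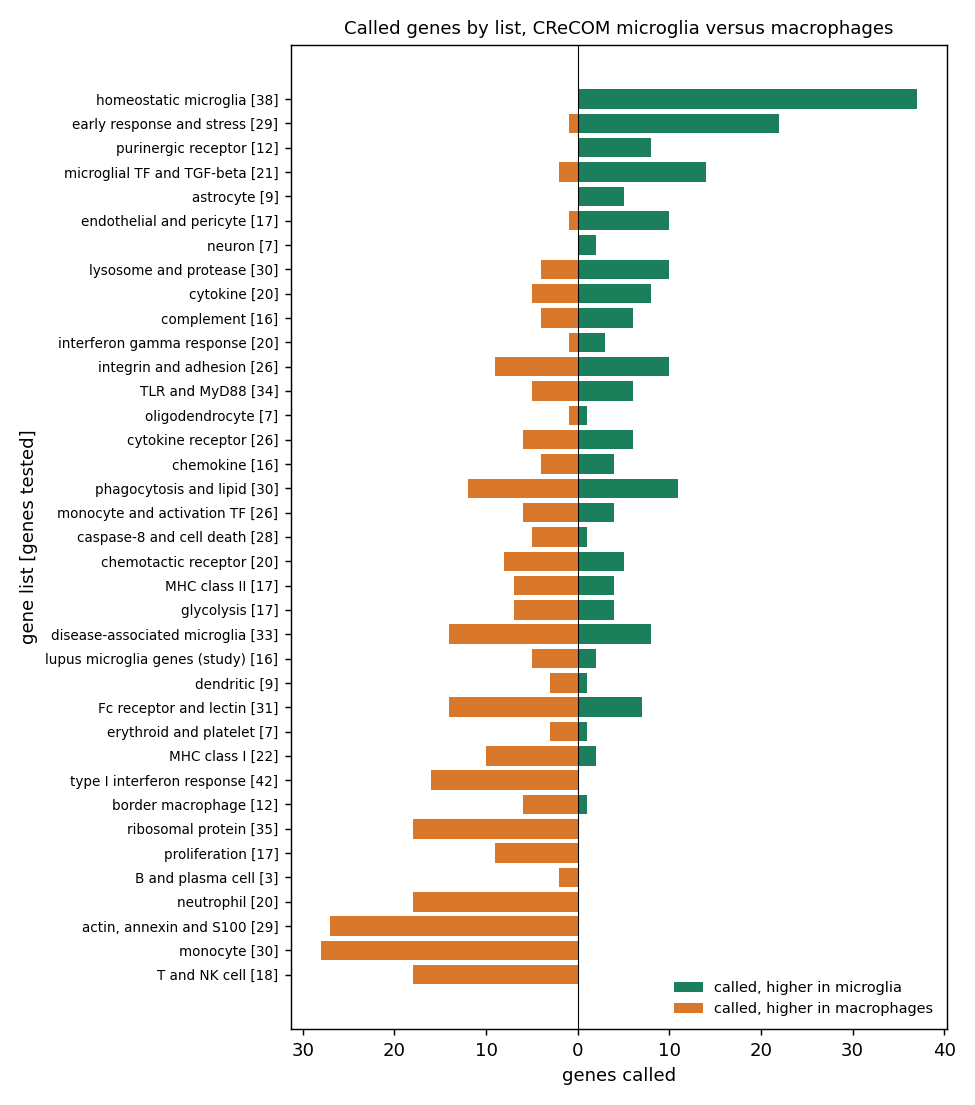
Number of genes called higher in microglia (green bars to the right) and in macrophages (orange bars to the left) for each gene list, with the number of members tested in brackets. Homeostatic, purinergic and early response genes lie almost wholly to the right, monocyte, neutrophil, lymphocyte, actin, ribosomal and type I interferon genes to the left, and complement, chemokine, lysosome and uptake genes on both sides.

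The largest differences were not limited to the lists. Among called genes with at least 100 CPM and no overlap, the largest fitted differences toward microglia beside Sall3 and Sall1 included Tspan7, a tetraspanin, at 98.3, 99.7, 143 and 137 CPM in microglia and 0, 0.12 and 0 CPM in macrophages, and Gem, a small GTPase, at 93, 208, 125 and 125 CPM in microglia and 0, 0.719 and 0.158 CPM in macrophages. Igfbp7 belonged there as well at 14.5, 25.6, 268 and 165 CPM in microglia and 0 CPM in all 3 macrophage libraries, uneven over the microglia libraries and highest in replicate 4, which also held the most endothelial RNA. Toward macrophages the 10 largest fitted differences were of genes at 0 in the 4 microglia libraries, whose order is not that of a measured ratio. Beyond Ltf, Fpr2 and Treml4 they included the orphan receptor Gpr141 at 0 CPM in all 4 microglia libraries and 404, 296 and 412 CPM in macrophages, at least 564-fold higher in macrophages, the aspartic protease Napsa at 0 CPM in all 4 microglia libraries and 463, 338 and 247 CPM in macrophages, at least 531-fold higher in macrophages, and the lectin Clec4e, a receptor for mycobacterial lipid and dying cells, at 0 CPM in all 4 microglia libraries and 322, 311 and 191 CPM in macrophages, at least 418-fold higher in macrophages. Trem1, which amplifies the inflammation of neutrophils and monocytes, was at 0 CPM in all 4 microglia libraries and 215, 243 and 204 CPM in macrophages, at least 335-fold higher in macrophages.

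The remaining members with the smallest p of their lists are given by their log2 fold changes, or, where the other cell type had 3 counts or fewer in all, by a bound or a ratio of summed counts. Higher in microglia were Ltc4s (ratio of summed counts 742 (95% interval 253 to 3599)), which makes leukotriene C4, Lrrc3 (9.34) and Rapgef5 (9.11). So were the border macrophage marker Stab1 (2.67) and the neural markers Sparcl1 (5.35), Trf (1.78) and Snhg11 (2.85). The endothelial markers Bsg (3.29) and Ly6c1 (4.60), the endothelial Ly6 antigen, were on that side too. Among transcription, death and adhesion genes higher in microglia were Id2 (0.96), Klf6 (0.89), Nfkbiz (1.67), Bid (1.75), which caspase-8 cleaves, Itga6 (3.58), Cd81 (4.26), Sirpa (1.33) and Fcgr3 (1.41), with Pros1 (3.06), Ier5 (2.90), Pfkfb3 (2.76), Hk2 (1.53) and the nuclear noncoding RNA Malat1 (0.72). Granule and monocyte genes higher in macrophages were Slpi (at least 336-fold higher in macrophages) and Mmp8 (at least 318-fold higher in macrophages), both at 0 in microglia, and Ifitm6 (ratio of summed counts 8692 (95% interval 1559.7 to 343367)), Clec4n (at least 142-fold higher in macrophages), Retnlg (at least 183-fold higher in macrophages) and Pglyrp1 (-3.33). Lymphocyte markers on that side were Ccl5 (-4.12) and Igkc (-5.88). The red cell gene Alas2 was at 0 CPM in all 4 microglia libraries and 0, 0.719 and 214 CPM in macrophages, at least 109-fold higher in macrophages, a bound that rests on macrophage replicate 5. Bid lost its call without microglia replicate 3 or 5, or macrophage replicate 3, 4 or 5 (adjusted p up to 0.191). Malat1 lost its call without microglia replicate 2 (log2 fold change 0.57). Ccl5 lost its call without microglia replicate 2, 3, 4 or 5, or macrophage replicate 3, 4 or 5 (adjusted p up to 0.172). Igkc lost its call without microglia replicate 2, 3 or 5, or macrophage replicate 4 (adjusted p up to 0.205). Alas2 lost its call without microglia replicate 2, 3, 4 or 5, or macrophage replicate 5 (adjusted p up to 0.512). For Lrrc3 the log2 fold change was 10.64 without macrophage replicate 4, for Rapgef5 it was 12.43 without macrophage replicate 4, for Sparcl1 it was 10.80 without macrophage replicate 4, for Pglyrp1 it was -4.25 without microglia replicate 2, and for Igkc it was -9.13 without microglia replicate 4 and -3.52 without macrophage replicate 4. Bid (adjusted p = 0.128), Malat1 (log2 fold change 0.58), Ccl5 (adjusted p = 0.157) and Alas2 (adjusted p = 0.136) lost the call with the mouse as a block.

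Further pathway members were higher in macrophages. These were the factor Klf13 (-2.38), the class I genes Tapbp (-1.58) and H2-Q7 (-2.31), the antiviral Ifitm2 (-5.17), the TNF receptor Tnfrsf1b (-1.19) and the pore former Bak1 (-2.68). Signaling genes on that side were the cytokine Spp1 (-5.79), the receptor chains Csf2rb (-1.90) and Il17ra (-1.77), the chemokine Ccl9 (-2.25), the leukotriene receptor Ltb4r1 (at least 133-fold higher in macrophages), the integrin Itgb7 (at least 103-fold higher in macrophages) and the inhibitory receptors Clec4a3 (-2.0) and Cd300a (-2.88). Lipid, protease, glycolytic and structural genes were Fabp4 (at least 77.8-fold higher in macrophages), Ctsc (-0.91), Cd52 (-3.32), Pkm (-2.42), Tagln2 (-2.55) and Arpc1b (-1.51). Ribosomal and dividing-cell genes were Rps24 (-1.76), Rpl8 (-1.97), Ube2c (-7.05) and Birc5 (-6.03). Spp1 lost its call without macrophage replicate 5 (adjusted p up to 0.214). Ctsc lost its call without macrophage replicate 4 or 5 (adjusted p up to 0.167). For Spp1 the log2 fold change was -6.63 without microglia replicate 5 and -4.86 without macrophage replicate 5, for Ube2c it was -11.13 without microglia replicate 5, and for Birc5 it was -9.99 without microglia replicate 5. Ctsc (adjusted p = 0.102) lost the call with the mouse as a block.

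Whether the difference between the cell types was particular to CReCOM mice was asked with an interaction test against WT mice of the same age. It was called for 24 of 9058 genes (0.265%), 6 with a larger value in CReCOM and 18 with a smaller one, where 628 had an unadjusted p under 0.05. With the mouse as a replicate block 0 genes were called, with 438 at an unadjusted p under 0.05, and with DESeq2 193 were called, among them these 24. The count was 5 without CReCOM microglia replicate 4 or 5, 6 without WT microglia replicate 5, 15 without CReCOM microglia replicate 2 or 3 or macrophage replicate 4, 47 without WT macrophage replicate 6 and 62 without WT macrophage replicate 2. Myd88 was at 69.1, 69.1, 82.3 and 103 CPM in microglia and 234, 334 and 278 CPM in macrophages in CReCOM, and at 107, 171, 175 and 226 CPM in WT microglia and 181, 99.7 and 165 CPM in WT macrophages. In WT the cell types overlapped, and in CReCOM microglia the level was below and in CReCOM macrophages above every WT library of its kind. The log2 cell type difference in CReCOM minus that in WT was -2.08 (adjusted p = 0.0825, and 0.872 with the block). It was called in 9 of 25 alternative fits, with values from -2.26 to -1.8.

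Several other interaction genes had macrophage levels near 0 in 1 genotype. Efnb1, on the X chromosome (99136130 to 99148991), encodes an ephrin ligand and was at 39.6, 70.2, 50.3 and 62.7 CPM in microglia and 11.8, 6.11 and 56.4 CPM in macrophages in CReCOM, and at 86.3, 57.3, 48.5 and 68 CPM in WT microglia and 0.247, 0 and 0 CPM in WT macrophages (difference -8.22 ± 1.36, SE, adjusted p = 0.0191). Adap2 followed the same pattern, with WT macrophages at 0.247, 0 and 1.35 CPM and CReCOM macrophages at 11.8, 15 and 37.7 CPM (-5.74 ± 0.97, adjusted p = 0.0191), and so did the cathepsin gene Ctsf (-7.77 ± 1.5, adjusted p = 0.0523). Cdk5rap3, Csad and Parp2 were further members, at differences of -8.13, -4.89 and -4.56. In the other direction Gem was at 112, 97.1 and 9.45 CPM in WT macrophages and at 0, 0.719 and 0.158 CPM in CReCOM macrophages (6.98 ± 1.07, adjusted p = 0.0191), and the vesicle protein gene Scamp5 at 18.3, 10.6 and 13.7 CPM in WT and 0, 0.12 and 0.158 CPM in CReCOM macrophages (6.89 ± 1.05, adjusted p = 0.0191). Camk2n1, an inhibitor of CaM kinase II, and Tgfa, a ligand of the EGF receptor, had differences of 2.89 and 8.44. Tgfa was at 0 in every CReCOM macrophage library and Ctsf in every WT one, so their fitted sizes are not measured ratios. Tlr1, the only Toll-like receptor gene among the 24, was at 0, 0.216 and 0 CPM in WT macrophages and 8.69, 47.5 and 8.4 CPM in CReCOM macrophages (-7.67 ± 1.60, adjusted p = 0.0732). Beside these values, T and NK markers summed to 522 to 970 CPM in CReCOM and 3050 to 3678 CPM in WT macrophages, and neutrophil markers to 12426 to 17199 and 7370 to 11178 CPM. Their part in the interaction calls was not tested.

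**Figure D5:**
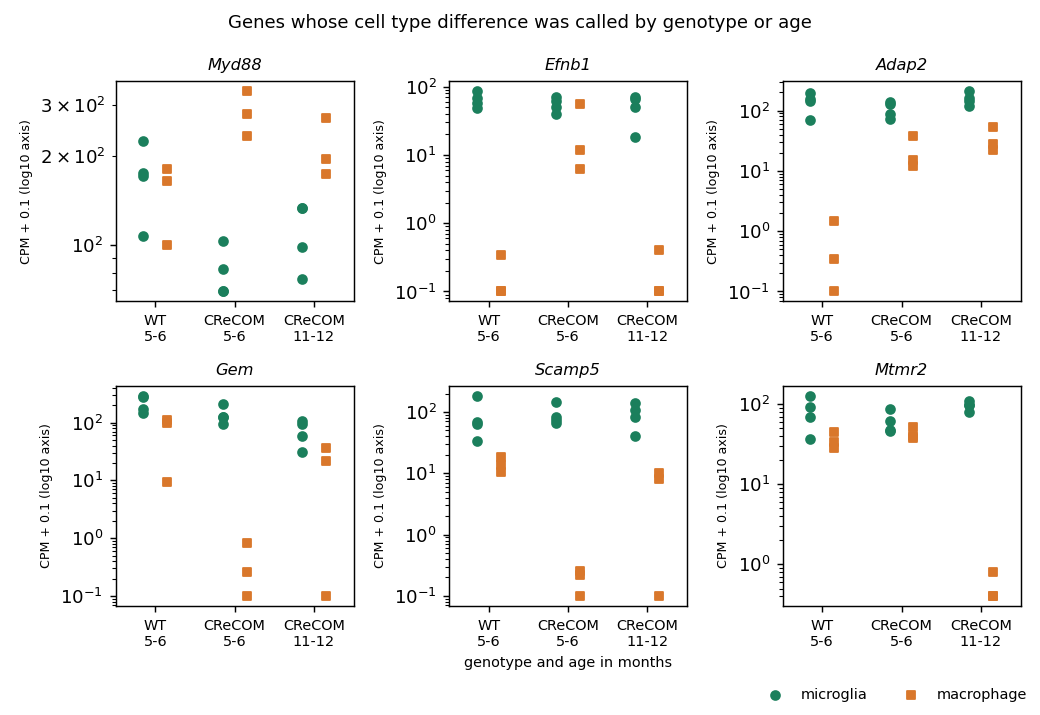
CPM on a log10 axis, drawn as CPM + 0.1, of 6 genes in each library of WT mice at 5 to 6 months, CReCOM mice at 5 to 6 months and CReCOM mice at 11 to 12 months, with microglia as green circles and macrophages as orange squares. Myd88 separates by cell type in CReCOM at 5 to 6 months and overlaps in WT, and Efnb1, Adap2, Gem, Scamp5 and Mtmr2 differ mainly in the macrophage libraries.

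The same was asked of age. Against CReCOM mice of 11 to 12 months, the cell type difference was called for 3 of 9058 genes (0.0331%), 0 larger and 3 smaller at 5 to 6 months, where 518 had an unadjusted p under 0.05. DESeq2 called 126, and the fit with the replicate block 2, of which 1 was shared. The count was 14 without older macrophage replicate 1, 7 without older microglia replicate 1, and 5 without older macrophage replicate 4 or younger macrophage replicate 5. Mtmr2, a phosphoinositide phosphatase, was at 47.9, 46, 61.8 and 87.7 CPM in microglia and 37.5, 40.4 and 52.1 CPM in macrophages at 5 to 6 months and at 96.7, 98.5, 108 and 79.9 CPM in microglia and 0.304, 0.307 and 0.715 CPM in macrophages at 11 to 12 months (-7.27 ± 1.04, adjusted p = 3.66e-04, and 0.0198 with the block). Mtmr2 was called in 25 of 25 alternative fits. Efnb1 was at 0, 0.307 and 0 CPM in the older macrophages (-7.41 ± 1.34, adjusted p = 0.0154), and Prkab1, a subunit of the energy sensor AMPK, was at 0.761, 0.307 and 0.477 CPM there and at 82.4, 12.5 and 10.3 CPM in the younger ones (-5.78 ± 1.16, adjusted p = 0.0524). Prkab1 was high in 1 of 3 younger macrophage libraries. Myd88 was not called between the ages (-0.87 ± 0.50, adjusted p = 0.979).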

How the data were processed

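RNA of sorted microglia and macrophages was sequenced as QuantSeq 3′ mRNA libraries in the study. Per the submitters' processing notes and the study's methods, bcl2fastq, a trimming step, STAR and HTSeq were used with mm10 (GRCm38), with versions not given in the sources used here. The deposited tables hold a raw count per gene and, from the authors, CPM values scaled to each library's counted reads, in separate tables for each cell type. Counts were joined by gene ID, with 2 genes (Gnai3 and Pbsn) not in the microglia table. CPM are those of the authors, who had left out mice and libraries for failed behavioral tests or processing, low RNA, depth or alignment.

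Genes passed if log2 of the highest group mean CPM plus 1 was over 4 in microglia or over 5 in macrophages, after the study's filters. Counts were fitted with edgeR 4.0.16 (TMM, quasi-likelihood) in R 4.3.3, on the 14 libraries of 5 to 6 months for cell type and genotype and on all 28 for age. Alternatives used limma 3.58.1, DESeq2 1.42.0, other scalings, filters and libraries, a replicate block, and each library left out. Code was tested on simulated data. Named genes are the sort genes, those with the largest differences, the smallest p per list and the defining members of pathways. The members, lists and named genes were chosen with earlier results of these data known. Same-numbered libraries of 1 genotype and age were taken as 1 mouse from the library names, and their residuals correlated at 0.012, -0.023 and 0.024 in CReCOM mice of 5 to 6 months. Ratios of counts carry exact 95% intervals that cover counting error only. Libraries of 1 group differed by more than sampling noise. Gene positions are from GENCODE (GRCm38), promoters from RefSeq (GRCm38.p6). Some genes that the rule names are not reported here.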

Additional observations from a re-analysis of the deposited data

Results flagged for a closer look

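In 278 sets of 4 values, those of the CReCOM microglia libraries at 5 to 6 months, the gap of 1 library to the nearest other was set against the whole range. In 22 of them their ratio exceeded the 95% critical value of Dixon's test, which chance exceeds in about 1 of 20 groups. Where all other libraries were at 0, as for Cfp, Mki67, Ccr2, Il1rn, Msr1, Ly6g and Plac8, the ratio is at its maximum at any level. Such sets were flagged by construction, and the rate by chance does not apply to them. Cfp, Ifitm6 and Mki67 were also below the floor of 3 counts. Replicate 2 stood apart in Camp (2.77 CPM), Chil3 (21.1 CPM), Ctsl (287 CPM), Irak3 (18.1 CPM), Irf7 (30.0 CPM), Ly6g (7.23 CPM), Mki67 (0.213 CPM), Plac8 (3.83 CPM), S100a9 (26.2 CPM) and the summed monocyte markers (1908 CPM). Replicate 3 stood apart in Cfp (0.219 CPM), Ifitm6 (0.219 CPM), Ifnar1 (45.2 CPM) and Irak4 (47.1 CPM). Replicate 4 stood apart in Ccr2 (20.5 CPM), Igkc (5.44 CPM), Il1rn (5.44 CPM) and Msr1 (1.93 CPM). Replicate 5 stood apart in Birc5 (5.21 CPM), Ripk1 (58.6 CPM), Smad3 (124 CPM) and Ube2c (1.49 CPM).

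The test of the interaction was passed by 24 genes between CReCOM and WT mice of 5 to 6 months. On the log2 scale, the cell type difference in CReCOM minus that in WT was below 0 for Tmco3 (-11.44), Coprs (-9.28), Oaf (-9.01), Csmd3 (-8.43), Efnb1 (-8.22), Cdk5rap3 (-8.13), Ctsf (-7.77), Tlr1 (-7.67), AB124611 (-7.58), 4632427E13Rik (-6.72), Zfp839 (-6.49), Nectin4 (-6.0), Adap2 (-5.74), Agrn (-5.38), Csad (-4.89), Parp2 (-4.56), Aldh3a2 (-4.54) and Myd88 (-2.08). It was above 0 for Camk2n1 (2.89), Rpsa-ps10 (5.06), Scamp5 (6.89), Gem (6.98), Tgfa (8.44) and 9430020K01Rik (9.98). Between CReCOM mice of 5 to 6 and of 11 to 12 months, it was below 0 at the younger age for Efnb1 (-7.41), Mtmr2 (-7.27) and Prkab1 (-5.78). In the comparison of genotypes, every WT macrophage library was at 0 for Tmco3, Coprs, Oaf, Csmd3 and Ctsf. Every CReCOM macrophage library of 5 to 6 months was at 0 for Tgfa. The fitted sizes of these genes are thus not measured ratios. With limma on log2(CPM + 1) they were -6.54, -4.26, -3.36, -3 and -2.25 in that order, and 2.32 for Tgfa.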

How the results depend on the processing

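The count of 1954 genes called between the cell types was 1237 with a fold over 4, and 1551 to 1808 with 1 library left out. Other settings kept it within 1.5 times, although DESeq2 called 1324 higher in microglia and 1061 in macrophages where edgeR called 952 and 1002. The 24 calls between genotypes were 10 at an adjusted p under 0.05, 193 with DESeq2, 107 with no filter, 2 with limma, 5 with all 28 libraries and 5 to 62 with 1 library left out. The 3 calls between ages were 126 with DESeq2, 118 with no filter, 1 with limma, 9 with the 14 CReCOM libraries alone and 2 to 14 with 1 library left out. Leaving out 1 library gave log2 fold changes of -9.61 to 1.02 for Hbb-bt, -9.19 to 0.52 for Hbb-bs and -9.0 to 1.02 for the erythroid list median, with the positive value of each, and so the reversal, only without macrophage replicate 5. Causes of these shifts were not tested. RLE factors moved the median log2 fold change of all genes from 0.08 to 0.149. Differences near the floor of 3 counts were not detectable at this depth.

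With the mouse as a replicate block, 1481 genes were called between the cell types, of which 1369 were shared, 682 higher in microglia and 799 in macrophages. The block left 0 calls between genotypes and 2 between ages. Casp8 stayed without a call (-0.49). Same-numbered libraries did not deviate together, with correlations of residuals of 0.012, -0.023 and 0.024 in mice 3, 4 and 5, so pairing rests on the library names.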
